A study of Mus musculus with 9 samples.

Results

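Genes of macrophages, dendritic cells and neutrophils were described in the intestinal stem cell niche of the mouse ileum, the crypt base that was cut out by laser microdissection and sequenced as bulk RNA. The set held 41 genes, found by NCBI gene number among the 18220 rows of the deposited table of FPKM (fragments per kilobase of transcript, scaled to library depth, so a level per length), and all 41 were in the table. There were 9 libraries in 3 groups of 3, each described by the submitters as 3 independent biological replicates. AKR 25 wk libraries came from AKR mice aged 25 weeks, the strain free of ileitis. SAMP 5 wk and SAMP 25 wk libraries came from SAMP/YitFc mice aged 5 and 25 weeks, the former described as free of inflammation and the latter as highly diseased with an ileitis like that of Crohn's disease. All 9 mice were labelled wild type and none had a treatment in the labels. AKR mice aged 5 weeks were not among the groups, so strain and disease differ together between the groups aged 25 weeks, and age and disease differ together within SAMP.

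Mononuclear phagocytes of the gut lie in the lamina propria next to the crypts. Macrophages there arise largely from blood monocytes that enter through the chemokine receptor Ccr2 and mature under Csf1r signals into cells that take up dead cells and microbes. Dendritic cells carry antigen to lymph nodes, and neutrophils enter from blood during acute inflammation. The transcription factor PU.1, the product of Spi1, drives many genes of the myeloid lineage, and its sites hold a GGAA core.

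The 3 marker genes of the label were read first. Itgam (chr7:128062640-128118491), which encodes the CD11b integrin chain of macrophages and neutrophils, Cd68 (chr11:69664213-69666170), a glycoprotein of macrophage lysosomes, and Fcer1g (chr1:171229572-171234349), the shared signalling chain of activating Fc receptors, were above an FPKM of 1 in each of the 9 libraries. Coordinates are on GRCm38.p6. Of the 41 members, 33 reached an FPKM of 1 on the mean of all 9 libraries and were tested. The 8 below it were Fcgr1, Cd163, Flt3, Zbtb46, S100a8, S100a9, Mpo and Il1b. Of the neutrophil genes 3 of 5 were thus under the filter, and of the dendritic cell genes 2 of 6. Il1b at a mean FPKM of 0.973 and Cd163 at 0.844 lay just outside, and Clec9a at 1.06 and Csf3r at 1.07 just inside. Group means reached an FPKM of 1 for 34 members in AKR 25 wk, 34 in SAMP 5 wk and 26 in SAMP 25 wk, and 18 members reached it in every library. The median of the mean FPKM was 2.95 over the 33 tested members, against 7.40 over all 11775 tested genes.

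Promoters are printed for the 3 markers of the label, which are among the called members but not the only ones. They come from RefSeq on GRCm38.p6, with 250 bases before and 50 after the annotated start, written 5′ to 3′ on the strand of the gene. Capitals mark GAGGAA, a form of the PU.1 core, on the strand shown, or its reverse complement TTCCTC. The Itgam window is chr7:128062390-128062689 on the plus strand, the Cd68 window chr11:69666121-69666420 on the minus strand and the Fcer1g window chr1:171234300-171234599 on the minus strand.
Itgam: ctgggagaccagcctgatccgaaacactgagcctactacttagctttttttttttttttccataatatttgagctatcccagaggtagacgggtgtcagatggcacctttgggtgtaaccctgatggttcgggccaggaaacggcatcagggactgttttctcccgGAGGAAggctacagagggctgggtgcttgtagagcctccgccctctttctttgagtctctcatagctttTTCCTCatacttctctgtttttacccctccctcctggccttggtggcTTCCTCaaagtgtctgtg
Cd68: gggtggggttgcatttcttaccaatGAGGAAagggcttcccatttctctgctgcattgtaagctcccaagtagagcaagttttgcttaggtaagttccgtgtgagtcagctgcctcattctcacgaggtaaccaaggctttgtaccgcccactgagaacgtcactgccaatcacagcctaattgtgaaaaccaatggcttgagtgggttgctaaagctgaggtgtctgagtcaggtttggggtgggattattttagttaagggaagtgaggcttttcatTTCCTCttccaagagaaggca
Fcer1g: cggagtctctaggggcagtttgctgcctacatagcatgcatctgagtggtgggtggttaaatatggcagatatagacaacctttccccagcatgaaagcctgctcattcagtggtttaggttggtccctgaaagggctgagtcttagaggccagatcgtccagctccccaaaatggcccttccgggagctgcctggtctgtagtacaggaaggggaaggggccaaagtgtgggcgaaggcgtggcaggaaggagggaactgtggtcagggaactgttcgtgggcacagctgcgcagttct

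The Itgam promoter held 3 matches of GAGGAA and the Cd68 promoter 2, while the Fcer1g promoter held 0 in this window. The shorter GGAA core was not counted, and it does occur in the printed Fcer1g sequence. Searching both strands, GAGGAA was found in 18 of the 33 members that had a promoter in the table on a chromosome other than 18 (54.5%), against 28.3% of all 32851 promoters. TGANTCA, the AP-1 motif, was found in 4 of the 33 (12.1%), against 7.81% of all promoters, and the Cd68 promoter held 2 of them, first bases at -149 and -24 from the start site. The matches of the 2 motifs did not overlap in the Cd68 window. Cyba, also a called member, is not printed, and its promoter held 0 matches of either motif. Cd14, also called, lies on chromosome 18 and was left out. A member counted if any of its promoters matched, while the shares of all promoters counted single promoters and included chromosome 18. The member shares and the shares of all promoters are thus in unlike units and cannot be compared directly. A match is a description of the letters only.

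**Figure D1:**
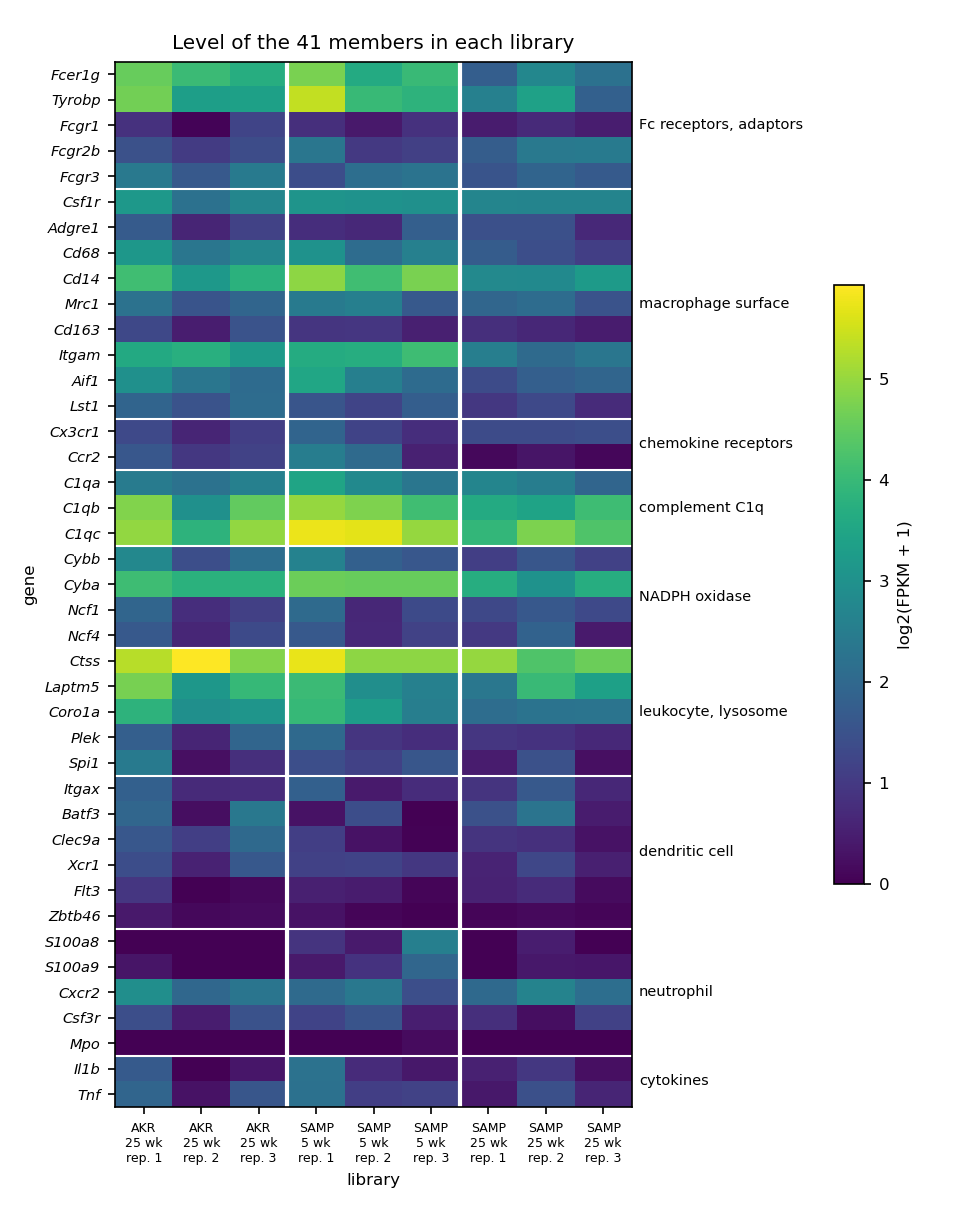
Level of each of the 41 members (rows, grouped by role) in each of the 9 libraries (columns), as log2(FPKM + 1) on a colour scale from 0. C1qc, Ctss and Cyba were among the members of highest level, while Mpo, Zbtb46 and S100a8 were at or near 0 in most libraries.

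The libraries differed in ways that touch these genes. Estimated depth was 6990000 to 10210000 reads, and 1 read in a transcript of 2000 bases was worth an FPKM of 0.049 to 0.072, so members near an FPKM of 1 rested on few reads. Replicate 2 of AKR 25 wk was rich in genes of absorptive enterocytes, with Apoa1 at an FPKM of 1364 against 0.31 to 13.33 in the other 8 libraries. It was the lowest library of its group for 29 of the 33 tested members, against 39.4% of all tested genes. Replicate 1 of AKR 25 wk was the highest of the group for 22 of the 33, against 39.6% of all tested genes. It was the lowest for 0 of the 33, against 18%. Replicate 3 of SAMP 25 wk had Xist, which coats the inactive X chromosome, at 176.8 and the Y-linked Eif2s3y at 0.14, against at most 1.32 and at least 14.53 elsewhere. The sex of the mice was not in the labels. Replicate 1 of SAMP 5 wk was the highest of all 9 libraries for 14 of the 33 members, against 23.8% of all tested genes. In SAMP 25 wk, replicate 2 was the lowest of all 9 libraries for 34% of all tested genes and for 4 of the 33 members. Within its group that library was the highest for 18 of the 33, against 22.6% of all tested genes. The summed FPKM of the 33 members ran from 186.2 to 307.6 in AKR 25 wk. It ran from 223.4 to 380.8 in SAMP 5 wk and from 133.1 to 159.7 in SAMP 25 wk, so every SAMP 25 wk library lay below the other 6.

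The first comparison asked how the diseased SAMP niche differed from that of the control strain at the same age. Of the 33 tested members, 3 fell and 0 rose in SAMP 25 wk against AKR 25 wk at an adjusted p of 0.05 (limma, Benjamini-Hochberg over all 11775 genes). They were the 3 markers Fcer1g, Itgam and Cd68. Members were chosen with earlier results of these data known, so this match is not an independent result. Over all tested genes 1.35% were lower and 1.59% higher by the same rule, 2.94% in either direction. Without SAMP 25 wk replicate 1 the same 3 members were called while the lower share of all tested genes rose to 2.65%. At an unadjusted p under 0.05, 11 members were lower and 1 higher, where the background was 10.6% and 4.93%. The median log2 fold change of the members was -0.43, with 29 of 33 below 0. The median of all tested genes was -0.15, with 67.1% below 0. When the libraries were given equal medians, 22 of 33 members were below 0, and the called members kept their direction. That setting brought the median of all tested genes to -0.01 and that of the members to -0.29, so the 67.1% is not its background. Rescaled to TPM, 30 members were below 0. There were 25 with quantile normalization, and 25 when rescaled without ribosomal RNA and defensin rows. In bulk tissue, fewer cells of a type and less RNA per cell cannot be told apart.

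The second comparison set diseased SAMP mice against young SAMP mice before disease. Here 4 members fell and 0 rose in SAMP 25 wk against SAMP 5 wk: Fcer1g, Itgam, Cd14 and Cyba. The background was 0.611% lower and 0.909% higher over all tested genes, 1.52% in either direction. Without SAMP 25 wk replicate 1, 5 members were called, Cd68 added, and the lower share of all tested genes was 3.24%. At an unadjusted p under 0.05, 11 members were lower and 0 higher, against a background of 11% and 5.49%. The median of the members was -0.48 with 24 of 33 below 0, and that of all tested genes -0.12 with 61.9% below 0. The same SAMP 25 wk libraries enter both comparisons, so the results are not independent of each other.

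SAMP 5 wk against AKR 25 wk compared the groups without inflammation, which differ together in strain and age. By limma 0 members were called in either direction, with 3 higher and 1 lower at an unadjusted p under 0.05. The background was 0.289% higher and 0.263% lower at the adjusted threshold, 0.552% in either direction, and 3.33% and 4.14% at the unadjusted. The median of the members was 0.03 and that of all tested genes -0.03, with 16 of 33 members and 54% of all tested genes below 0.

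**Figure D2:**
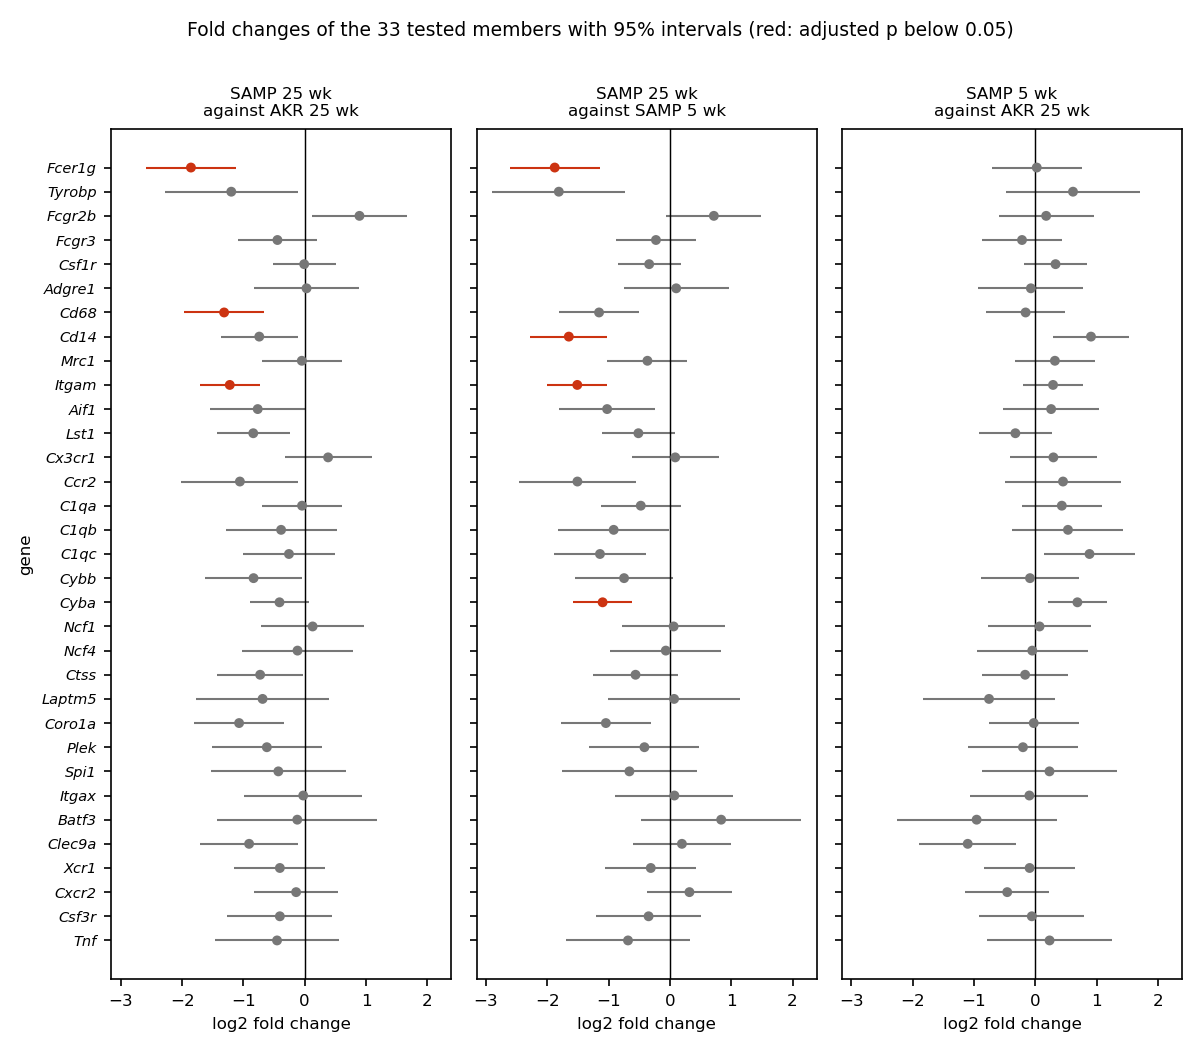
Log2 fold changes on the scale of log2(FPKM + 1) for the 33 tested members in the 3 comparisons, with 95% intervals from limma as lines and genes at an adjusted p below 0.05 in red. The called members lie to the left of 0 in both comparisons of SAMP 25 wk, where most other members also lie left of 0, and none is red in SAMP 5 wk against AKR 25 wk.

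Among the Fc receptors and their adaptors, Fcer1g fell in both comparisons of SAMP 25 wk. Its FPKM was 22.55, 15.57 and 11.93 in AKR 25 wk, 25.67, 11.31 and 15.18 in SAMP 5 wk, and 2.40, 5.74 and 3.65 in SAMP 25 wk. All 3 SAMP 25 wk libraries were below all 6 others, and the other groups overlapped. These levels rest on about 58 to 125 reads per library outside SAMP 25 wk and on 13 to 27 within it. The log2 fold change was -1.86 ± 0.34 (SE, limma adjusted p = 0.0109) against AKR 25 wk and -1.88 ± 0.34 (limma adjusted p = 0.0171) against SAMP 5 wk. The first call ended without AKR 25 wk replicate 1 (-1.63, adjusted p = 0.0574) or SAMP 25 wk replicate 3 (-1.84, adjusted p = 0.0524). The second ended without SAMP 5 wk replicate 1 (-1.57, adjusted p = 0.0564), SAMP 5 wk replicate 3 (-1.93, adjusted p = 0.0571) or SAMP 25 wk replicate 3 (-1.87, adjusted p = 0.0724), and with no filter (adjusted p = 0.068).

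Tyrobp, the DAP12 adaptor that pairs with activating receptors of myeloid and natural killer cells, was the highest of this list on average. Its FPKM was 24.54, 9.09 and 9.39 in AKR 25 wk, 41.10, 14.94 and 13.36 in SAMP 5 wk, and 5.02, 9.54 and 2.50 in SAMP 25 wk. SAMP 25 wk replicate 2 lay within the AKR 25 wk range, while all SAMP 25 wk libraries were below SAMP 5 wk. Neither difference passed, at -1.20 ± 0.50 (limma adjusted p = 0.274) and -1.81 ± 0.50 (limma adjusted p = 0.105). The receptors that signal through Fcer1g gave other values. Fcgr3, an activating receptor for IgG, had a log2 fold change of -0.44 (95% interval -1.09 to 0.20) against AKR 25 wk, and Fcgr1, the high affinity receptor for IgG, was under the filter at 0.04 to 1.32. Fcgr2b, the inhibitory IgG receptor of B cells and macrophages, was at 2.38 to 4.31 in SAMP 25 wk and 1.03 to 1.77 in AKR 25 wk without overlap, at 0.89 ± 0.36 (limma adjusted p = 0.251). Fcgr2b and Fcgr3 share stretches of near identical sequence, and how the authors assigned such reads was not given, so their split is uncertain.

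Among the surface genes of macrophages, Itgam fell in both comparisons of SAMP 25 wk. Its FPKM was 11.15, 12.37 and 8.34 in AKR 25 wk, 11.54, 11.93 and 16.11 in SAMP 5 wk, and 4.79, 3.14 and 3.99 in SAMP 25 wk. The SAMP 25 wk libraries were all below the other 6, which overlapped among themselves. Its log2 fold change was -1.22 ± 0.23 (limma adjusted p = 0.0115) against AKR 25 wk and -1.51 ± 0.23 (limma adjusted p = 0.00537) against SAMP 5 wk. The call against SAMP 5 wk held under all 22 alternatives tried, with an adjusted p of at most 0.035. The call against AKR 25 wk ended without AKR 25 wk replicate 1 (-1.18, adjusted p = 0.0589), SAMP 25 wk replicate 2 (-1.10, adjusted p = 0.0535) or SAMP 25 wk replicate 3 (-1.23, adjusted p = 0.051). Exons of Itgam share 210 bases with another gene model on the same strand that is not used here.

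Cd68 was lower in SAMP 25 wk than in AKR 25 wk. Its FPKM was 7.80, 4.02 and 5.63 in AKR 25 wk, 7.19, 3.29 and 5.01 in SAMP 5 wk, and 2.31, 1.69 and 1.14 in SAMP 25 wk. Every SAMP 25 wk library was below every other library. The log2 fold change was -1.31 ± 0.30 (limma adjusted p = 0.0351) against AKR 25 wk, and -1.16 ± 0.30 (limma adjusted p = 0.0851) against SAMP 5 wk, which did not pass. The call ended under 9 of 21 alternatives, with an adjusted p of at most 0.146, which was without AKR 25 wk replicate 1 (-1.11). It also ended without AKR 25 wk replicate 3 (-1.32, adjusted p = 0.0832), SAMP 5 wk replicate 3 (adjusted p = 0.0572), SAMP 25 wk replicate 2 (-1.32, adjusted p = 0.104) and SAMP 25 wk replicate 3 (-1.15, adjusted p = 0.142). Against SAMP 5 wk, leaving out SAMP 25 wk replicate 1 gave -1.31 and brought the adjusted p to 0.05.

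Cd14, the co-receptor that hands bacterial lipopolysaccharide to Tlr4, differed between the ages of SAMP mice. Its FPKM was 16.41, 7.89 and 12.76 in AKR 25 wk, 29.38, 16.33 and 25.80 in SAMP 5 wk, and 5.95, 6.05 and 8.32 in SAMP 25 wk. SAMP 25 wk lay below SAMP 5 wk without overlap and overlapped AKR 25 wk at replicate 2 of that group. The log2 fold change was -1.65 ± 0.29 (limma adjusted p = 0.014) against SAMP 5 wk and -0.74 ± 0.29 (limma adjusted p = 0.237) against AKR 25 wk, and SAMP 5 wk against AKR 25 wk gave 0.91 ± 0.29 (limma adjusted p = 0.376). The call ended without SAMP 5 wk replicate 1 (-1.48, adjusted p = 0.0567), SAMP 5 wk replicate 3 (-1.58, adjusted p = 0.0685) or SAMP 25 wk replicate 2 (-1.59, adjusted p = 0.0669), and with no filter (adjusted p = 0.0548).

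Other genes of the same list were not called, and for Csf1r, Mrc1 and Adgre1 the fold change between the groups aged 25 weeks was near 0. Csf1r, the receptor for the growth factors on which tissue macrophages depend, was at 7.91, 3.63 and 5.55 in AKR 25 wk, 7.43, 7.12 and 6.86 in SAMP 5 wk, and 5.53, 5.39 and 5.37 in SAMP 25 wk. The SAMP 25 wk libraries lay within the AKR 25 wk range and below SAMP 5 wk. Its log2 fold change was -0.01 (95% interval -0.52 to 0.51) against AKR 25 wk and -0.34 (95% interval -0.85 to 0.18) against SAMP 5 wk. Exons of Csf1r share 873 bases with Hmgxb3 on the opposite strand, and strandedness of the libraries was not given. Mrc1, the mannose receptor, had -0.05 (95% interval -0.70 to 0.61) against AKR 25 wk, and Adgre1, which encodes the F4/80 antigen, 0.03 (95% interval -0.82 to 0.89). These intervals do not show that the genes stayed level. Aif1, an actin-binding protein of macrophages, was at 1.55 to 2.80 in SAMP 25 wk and 3.20 to 6.86 in AKR 25 wk (-0.77 ± 0.36, limma adjusted p = 0.335). Lst1, a leukocyte-specific transcript, gave -0.84 ± 0.27 (limma adjusted p = 0.15).

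**Figure D3:**
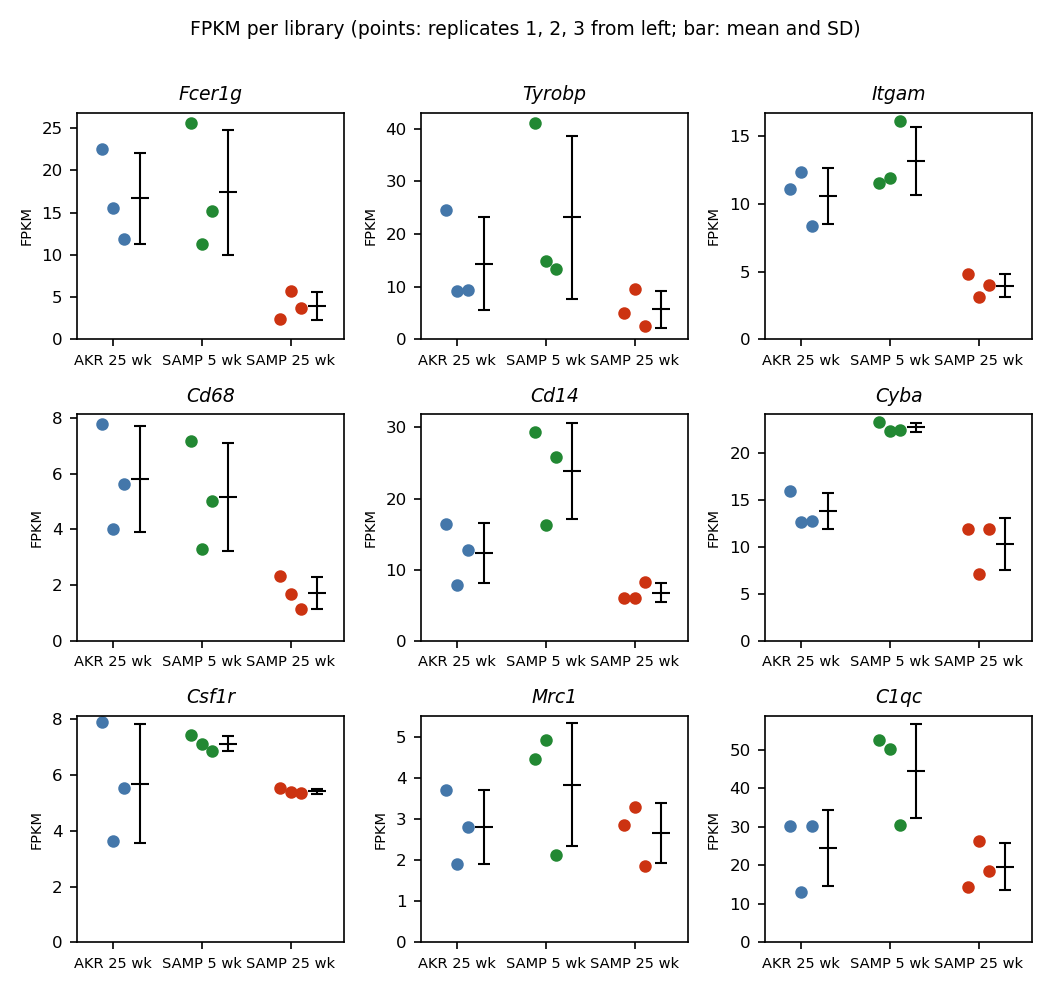
FPKM per library for 9 members: points are the 3 replicates of AKR 25 wk (blue), SAMP 5 wk (green) and SAMP 25 wk (red), with the group mean and SD beside them. The SAMP 25 wk points of Fcer1g, Itgam and Cd68 sit below all points of the other groups, while those of Csf1r and Mrc1 sit among the AKR 25 wk points.

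Of the chemokine receptors, Ccr2 was close to 0 in SAMP 25 wk. Ccr2, the receptor that draws monocytes from blood, was at 2.05, 0.96 and 1.25 in AKR 25 wk, 4.71, 3.11 and 0.47 in SAMP 5 wk, and 0.10, 0.27 and 0.07 in SAMP 25 wk. All SAMP 25 wk libraries lay below the other 6, at about 2 to 6 reads each. The differences of -1.06 ± 0.44 (limma adjusted p = 0.27) against AKR 25 wk and -1.51 ± 0.44 (limma adjusted p = 0.12) against SAMP 5 wk did not pass. The pseudocount of 1 understates changes at such levels. Without SAMP 5 wk replicate 3, the lowest of its group, the second was -2.08 (limma adjusted p = 0.0149) and passed. This was the only 1 of 21 alternatives in which it passed, and the limma adjusted p reached 0.332 in another. Against AKR 25 wk it passed in 0 of 21 alternatives, with a limma adjusted p of at least 0.101. Cx3cr1, the fractalkine receptor of resident macrophages, was at 1.56 to 1.68 in SAMP 25 wk and 0.52 to 1.46 in AKR 25 wk, without overlap, at 0.38 ± 0.33 (limma adjusted p = 0.61).

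The complement C1q chains, which macrophages secrete as the recognition unit of the classical pathway, were among the most abundant members. C1qc was at 30.16, 13.18 and 30.17 in AKR 25 wk, 52.65, 50.26 and 30.57 in SAMP 5 wk, and 14.26, 26.19 and 18.49 in SAMP 25 wk. SAMP 5 wk lay above both other groups without overlap. Neither the difference of SAMP 25 wk from SAMP 5 wk (-1.14 ± 0.34, limma adjusted p = 0.133) nor that from AKR 25 wk (-0.26 ± 0.34, limma adjusted p = 0.764) passed. C1qb gave -0.92 ± 0.41 against SAMP 5 wk (limma adjusted p = 0.298) and C1qa -0.48 ± 0.30 (limma adjusted p = 0.453). Against AKR 25 wk C1qa gave -0.04 (95% interval -0.70 to 0.61).

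Among the subunits of the phagocyte NADPH oxidase, Cyba fell against SAMP 5 wk. It encodes p22phox, the partner of the catalytic chain, and is also expressed outside phagocytes. Its FPKM was 16.02, 12.69 and 12.76 in AKR 25 wk, 23.34, 22.42 and 22.52 in SAMP 5 wk, and 11.93, 7.17 and 11.93 in SAMP 25 wk. The 3 groups did not overlap, with SAMP 5 wk highest and SAMP 25 wk lowest. The log2 fold change was -1.10 ± 0.22 (limma adjusted p = 0.0316) against SAMP 5 wk and -0.41 ± 0.22 (limma adjusted p = 0.404) against AKR 25 wk, and SAMP 5 wk against AKR 25 wk gave 0.69 ± 0.22 (limma adjusted p = 0.386). The call ended under 9 of 22 alternatives, with an adjusted p of at most 0.116. Of these, 6 left out 1 library each: AKR 25 wk replicate 1 (adjusted p = 0.0525), SAMP 5 wk replicates 1, 2 and 3 (0.0858, 0.116 and 0.116), and SAMP 25 wk replicates 2 and 3 (0.0967 and 0.0607), with log2 fold changes of -0.88 to -1.21. Cybb, the catalytic chain gp91phox, gave -0.83 ± 0.36 against AKR 25 wk and -0.75 ± 0.36 against SAMP 5 wk (limma adjusted p = 0.298 and 0.337). The cytosolic subunits Ncf1 and Ncf4 were at 0.34 to 3.16 in all libraries and did not pass. Exons of Ncf1 overlap Gtf2ird2 on the opposite strand.

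None of the 5 leukocyte genes of lysosome, cytoskeleton and lineage control was called. At an unadjusted p under 0.05 there were 2 of the 5 against AKR 25 wk and 1 against SAMP 5 wk. Over all tested genes 10.6% were lower and 4.93% higher against AKR 25 wk, and 11% and 5.49% against SAMP 5 wk. Ctss, the lysosomal protease cathepsin S that trims the invariant chain in antigen-presenting cells, was the member of highest mean. Its FPKM was 38.16, 59.92 and 27.54 in AKR 25 wk, 52.15, 29.20 and 29.11 in SAMP 5 wk, and 30.70, 18.63 and 23.17 in SAMP 25 wk. It was highest in the enterocyte-rich AKR 25 wk replicate 2, where 29 of the other members were the lowest of the group, and the groups overlapped. Coro1a, an actin regulator of leukocytes, was at 3.34 to 3.88 in SAMP 25 wk, 6.79 to 13.14 in AKR 25 wk and 4.82 to 14.81 in SAMP 5 wk. These did not overlap with SAMP 25 wk, at -1.07 ± 0.34 (limma adjusted p = 0.137) and -1.05 ± 0.34 (limma adjusted p = 0.163). Spi1, which encodes PU.1, was at 0.18 to 4.32 over the 9 libraries, with log2 fold changes of -0.43 ± 0.50 and -0.66 ± 0.50. Laptm5, a lysosomal membrane protein of blood cells, was at 4.10 to 15.29 in SAMP 25 wk and overlapped both other groups. Plek, the pleckstrin of platelets and leukocytes, was at 0.53 to 3.09 in all libraries.

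Dendritic cell genes were low, and by limma 0 of 4 tested were called in any comparison. In each comparison against AKR 25 wk, 1 of the 4 had an unadjusted p under 0.05. Over all tested genes 10.6% were lower and 4.93% higher for SAMP 25 wk, and 4.14% and 3.33% for SAMP 5 wk. Batf3, a transcription factor of cross-presenting dendritic cells, was at 2.91, 0.17 and 4.16 in AKR 25 wk, 0.22, 1.65 and 0 in SAMP 5 wk, and 1.76, 3.86 and 0.37 in SAMP 25 wk. All 3 groups overlapped. Clec9a, the receptor for dead cells on the same dendritic cells, was at 0.23 to 0.86 in SAMP 25 wk and 1.16 to 3.06 in AKR 25 wk (-0.91 ± 0.36, limma adjusted p = 0.257). Its exons share 184 bases with Clec1b on the same strand. Xcr1, the chemokine receptor of these cells, and Itgax, the CD11c integrin chain, were at 0.34 to 2.53 over all libraries. Flt3, the growth factor receptor of dendritic cells, was at 0 to 0.91 and Zbtb46, their lineage factor, at 0 to 0.32. These levels allow no statement on classical dendritic cells at this depth.

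Of the 5 neutrophil genes, S100a8, S100a9 and Mpo were at or near 0 in both SAMP 25 wk and AKR 25 wk, while Cxcr2 was above an FPKM of 1 in every library. S100a8, a calprotectin subunit and among the most abundant transcripts of neutrophils, was listed at 0, 0 and 0 in AKR 25 wk, 0.85, 0.35 and 4.88 in SAMP 5 wk, and 0, 0.39 and 0 in SAMP 25 wk. S100a9, the other subunit, was at 0 to 0.31 in SAMP 25 wk, 0 to 0.26 in AKR 25 wk and 0.33 to 2.91 in SAMP 5 wk. The highest value of both was in SAMP 5 wk replicate 3, at about 22 and 14 reads. Mpo, the peroxidase of neutrophil granules, was at 0 in 8 libraries and at 0.12 in that same library. Cxcr2, a chemokine receptor of neutrophils, was the highest of the list, at 6.67, 2.96 and 3.91 in AKR 25 wk, 3.13, 4.17 and 1.70 in SAMP 5 wk, and 3.06, 5.25 and 3.40 in SAMP 25 wk. Its groups overlapped, and its log2 fold change was -0.14 (95% interval -0.83 to 0.55) against AKR 25 wk and 0.32 (95% interval -0.37 to 1.01) against SAMP 5 wk. Csf3r, the receptor for the neutrophil growth factor, was at 0.17 to 1.89.

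Of the cytokines, Tnf was at 2.81, 0.22 and 1.99 in AKR 25 wk, 3.65, 1.16 and 1.25 in SAMP 5 wk, and 0.30, 1.72 and 0.54 in SAMP 25 wk, on about 3 to 41 reads. The groups overlapped, and SAMP 25 wk against AKR 25 wk gave -0.45 (95% interval -1.47 to 0.57). Il1b, which encodes interleukin-1 beta, was at 0 to 3.70 in all libraries, with its highest value in SAMP 5 wk replicate 1 and 0.19 to 0.95 in SAMP 25 wk. For neither cytokine did the SAMP 25 wk libraries lie above those of another group.

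Counted over libraries without a test, SAMP 25 wk lay below AKR 25 wk without overlap for 9 members and above it for 2, against 12.6% and 6.6% of all tested genes. Against SAMP 5 wk it lay below for 13 members and above for 0, against 12.3% and 7.95%. For 7 members, Fcer1g, Cd68, Itgam, Aif1, Ccr2, Cyba and Coro1a, all 3 SAMP 25 wk libraries were below all 6 others, a pattern that 5.39% of all tested genes had. In SAMP 5 wk against AKR 25 wk the groups did not overlap for C1qc and Cyba, which were higher in SAMP 5 wk, and Clec9a, which was lower, against a background of 6.11% and 8.33%.

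Genes of phagocytes outside the set were counted beside it. Of 51 listed, 47 were in the table and 31 were tested. Against SAMP 5 wk 0 were called by limma, with 8 of 31 at an unadjusted p under 0.05, and the median log2 fold change was -0.36. At that unadjusted threshold 11% of all tested genes were lower and 5.49% higher. Of the 31, 23 were below 0 against SAMP 5 wk, where 61.9% of all tested genes were. Against AKR 25 wk the median was -0.29, with 26 of 31 below 0 against 67.1% of all tested genes. Ptprc, which encodes the leukocyte antigen CD45, was among those near 0, at -0.02 (limma adjusted p = 0.99) against AKR 25 wk. It does not stand for the list, in which Lyz2 had -1.29 and Lyn -1.01 in that comparison.

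Among 30 ligands and sensors of phagocytes, 28 were in the table and 18 were tested, and 1 rose and 0 fell in each comparison of SAMP 25 wk. Over all tested genes 1.59% were higher and 1.35% lower against AKR 25 wk, and 0.909% and 0.611% against SAMP 5 wk. The gene that rose was Tlr4, the lipopolysaccharide receptor that acts with Cd14. Its FPKM was 1.55, 0.89 and 1.39 in AKR 25 wk, 1.47, 1.08 and 0.75 in SAMP 5 wk, and 3.79, 4.26 and 3.46 in SAMP 25 wk, above both other groups. The log2 fold change was 1.10 ± 0.25 (limma adjusted p = 0.0344) and 1.21 ± 0.25 (limma adjusted p = 0.0327). The calls ended under 11 and 8 of 21 alternatives, with an adjusted p of at most 0.181 and 0.141. For the first, leaving out any AKR 25 wk or SAMP 25 wk replicate or SAMP 5 wk replicate 2 ended it, at 0.97 to 1.18. For the second, leaving out AKR 25 wk replicate 1, SAMP 5 wk replicate 2 or 3, or SAMP 25 wk replicate 2 or 3 ended it, at 1.09 to 1.27.

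Marker lists of other cells that express some of these members were read beside the falls. Fcer1g is also a chain of the IgE receptor of mast cells and basophils. The 10 genes of mast cells, eosinophils and basophils that were in the table summed to an FPKM of 1.36 to 5.99 over the 9 libraries, none passed the filter, and 8 of them, Cpa3, Fcer1a, Mcpt1, Mcpt2, Tpsb2, Prg2, Epx and Ccr3, were at 0 in some library. Tyrobp and Coro1a are also expressed by lymphocytes. The 18 T, natural killer, B and plasma cell genes had sums between 142.6 and 301.5 in AKR 25 wk, between 54.39 and 217.9 in SAMP 5 wk, and between 66 and 79.02 in SAMP 25 wk. By limma 0 of 11 tested genes were called in any comparison, with 5 and 2 at an unadjusted p under 0.05 in those of SAMP 25 wk. At that threshold 10.6% of all tested genes were lower and 4.93% higher against AKR 25 wk, and 11% and 5.49% against SAMP 5 wk. All 11 were below 0 against AKR 25 wk, with a median log2 fold change of -1.085. Against SAMP 5 wk 9 of the 11 were below 0, with a median of -0.123. Of the 18 genes 8 were at 0 in some library, among them Cd3d and Ms4a1, which mark T and B cells. Tuft cell genes moved the other way, with sums between 5.94 and 13.24 in AKR 25 wk, between 9.10 and 17.71 in SAMP 5 wk, and between 42.32 and 47.45 in SAMP 25 wk. At an adjusted p of 0.05 all 6 tested tuft genes rose against AKR 25 wk and 3 of 6 against SAMP 5 wk. Over all tested genes 1.59% and 0.909% were higher by that rule. Blood in the sample was read from red cell genes, which summed to 3.19 to 12.44, 8.50 to 22.18 and 0.94 to 3.31 in the same order. Of 2 tested, 1, Hbb-bs, fell against SAMP 5 wk, where 0.611% of all tested genes were lower by the adjusted rule. The 12 genes of stroma and endothelium, the tissue in which these phagocytes lie, summed to 92.92 to 236.4, 145.2 to 321.8 and 176.1 to 233.9. Of these, 0 of 12 were called by limma in any comparison. In each comparison of SAMP 25 wk, 3 had an unadjusted p under 0.05. Their median log2 fold change was 0.398 against AKR 25 wk, with 2 of 12 below 0. Against SAMP 5 wk it was 0.29, with 5 of 12 below 0. The largest change in both was a rise of Des, at 1.43 and 1.51. Over all tested genes 67.1% and 61.9% were below 0. The part of these cell types in the results on the members was not tested.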

How the data were processed

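The 9 libraries of laser-captured niche were grouped by the strain and age in the labels. Values are FPKM as the authors deposited them in 1 table with named columns. The submitters' processing notes name Trimmomatic, STAR, HTSeq, DESeq2 and GRCm38 without versions. The tool behind the FPKM, the strandedness and the read length are not given in the sources used here. A label mentions crypt culture, and how this bears on captured tissue is not stated. Names came from RefSeq, 18155 of 18220 rows by gene number.

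Count tests do not suit FPKM and were not used. Depth was estimated from steps between low values, of which 76.3% to 81.1% came within 0.2 of whole reads (40% at random), too few to recover counts. The 11775 genes averaging an FPKM of 1 or more entered limma 3.58.1 (R 4.3.3) as log2(FPKM + 1), in 1 fit of 3 group means with a variance trend. Benjamini-Hochberg adjustment was made per comparison at 0.05, and errors are SE. The test was checked on simulated data. Members, gene lists and tests were chosen with earlier results of these data known. By rule, every library is given for called members, the markers and the highest member of each role; Csf1r and S100a8 were added after their values were seen. Proteins are not used here, and some genes outside the set are not reported here. Tables and figures used Python 3.11.15, pandas 2.3.3 and matplotlib 3.10.9.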

Additional observations from a re-analysis of the deposited data

How the results depend on the processing

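Under the alternatives no called member changed direction; uncalled members near 0, such as Csf1r against AKR 25 wk, changed sign under some. Against AKR 25 wk, 3 members were called; with 1 library left out the count was 0 to 3, being 0 without AKR 25 wk replicate 1 or SAMP 25 wk replicate 3, and it was 0 without AKR 25 wk replicate 2 and SAMP 25 wk replicate 3 together, where Fcer1g still had -1.87 and Itgam -1.12. All genes called, 346 (54% higher), became 186 to 492 with 1 library left out (492 with 36.6% higher without SAMP 25 wk replicate 1), 158 without that pair and 533 at a threshold of 0.1; 64.9% were higher with quantile normalization and 66.7% with equal medians. Against SAMP 5 wk, 4 members became 1 to 5 with 1 library left out, 1 with no filter and 2 without that pair. All genes called, 179 (59.8% higher), became 82 to 528 with 1 library left out (528 with 27.8% higher without SAMP 25 wk replicate 1), 99 (71.7% higher) with no filter, 369 at a threshold of 0.1, 270 (71.9% higher) when rescaled without ribosomal RNA and defensin rows, and 300 (71.3% higher) with quantile normalization. The members' median moved from -0.48 to -1.07 at a minimum mean FPKM of 5, which leaves 12 members. In SAMP 5 wk against AKR 25 wk, 65 genes became 36 to 70 with 1 library left out and 40 without that pair, and the members' median, 0.03, was 0.38 at a minimum mean of 5, -0.04 as TPM, -0.02 without ribosomal RNA and defensin rows and -0.19 to 0.27 with 1 library left out, so it had no stable sign. Fits with fewer samples or more genes tested have less power by construction. Without SAMP 25 wk replicate 1 the count of all genes called rose in both comparisons of SAMP 25 wk. Why the counts changed was not tested. Equal medians moved the median of all genes from -0.15 to -0.01 and of the members from -0.43 to -0.29 against AKR 25 wk. No paired analysis was possible because the labels give no replicate numbers. Depth limits members near an FPKM of 1, which rest on few reads.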
